A study of Homo sapiens with 12 samples.

Results

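The comparison described here is between a pair of non-targeting siRNAs, the Dharmacon siGENOME control (control siRNA 2) and the Ambion control (control siRNA 1), in Caco-2 cells, a colonic adenocarcinoma line. Its members are the 6 of the 12 arrays of the series whose titles name a control siRNA, 3 for control siRNA 2 and 3 for control siRNA 1, and no measured value was used to choose them. All 6 samples shared the cell line, medium and transfection reagent (Lipofectamine RNAiMAX), and none was treated with an siRNA against ZNF658. The other 6 arrays, 3 of ZNF658 siRNA 2 (Dharmacon) and 3 of ZNF658 siRNA 1 (Ambion), belong to the knockdown of ZNF658, a zinc finger transcription factor, that the controls served. The supplier, the sequence of the siRNA and any separate handling of the 2 control groups cannot be told apart in this design, and the labels do not say whether replicates were separate cultures, so that P values measure the spread between these arrays.

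A non-targeting siRNA is a short RNA duplex with no intended match in the human transcriptome. It still enters Argonaute, occupies the RNA interference machinery, and can lower transcripts that pair with its seed. Cells can also sense double-stranded RNA and induce interferon genes. A pair of such controls thus gives a view of how far the transcriptome moves between transfections in which no gene was aimed at.

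Among the genes that differed most were those of the placental hormone chorionic gonadotropin, which the syncytiotrophoblast secretes and many carcinomas produce ectopically. It is a dimer of the alpha subunit encoded by CGA and of a beta subunit encoded by near-identical copies, CGB3, CGB5, CGB7 and CGB8, on chromosome 19, beside CGB1 and the luteinizing hormone gene LHB. Transcription of CGA is known to respond to cyclic AMP through a cyclic AMP response element (CRE). To show this element and the likeness of the beta genes, the RefSeq promoter windows, which run from 250 bases before to 50 bases after the annotated start, are printed 5′ to 3′ on the gene's strand from GRCh38.p14. In the CGA window (chr6:87095057-87095356, minus strand) capitals mark the CRE letters TGACGTCA, a palindrome that reads alike on both strands. In the CGB8 (chr19:49049062-49049361, minus strand) and CGB3 (chr19:49024284-49024583, minus strand) windows capitals mark the bases outside the stretches shared with CGB5 (chr19:49043598-49043897, plus strand).
CGA: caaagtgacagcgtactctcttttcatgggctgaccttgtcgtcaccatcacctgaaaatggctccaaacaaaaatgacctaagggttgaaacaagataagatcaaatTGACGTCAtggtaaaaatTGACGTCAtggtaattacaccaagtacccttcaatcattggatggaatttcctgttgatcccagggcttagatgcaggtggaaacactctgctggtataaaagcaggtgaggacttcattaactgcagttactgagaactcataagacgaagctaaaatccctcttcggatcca
CGB5: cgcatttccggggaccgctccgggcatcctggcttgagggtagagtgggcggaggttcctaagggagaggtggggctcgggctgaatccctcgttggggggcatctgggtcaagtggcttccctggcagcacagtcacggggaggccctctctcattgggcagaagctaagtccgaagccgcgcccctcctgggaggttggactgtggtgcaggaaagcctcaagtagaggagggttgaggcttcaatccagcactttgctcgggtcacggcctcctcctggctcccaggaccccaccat
CGB8: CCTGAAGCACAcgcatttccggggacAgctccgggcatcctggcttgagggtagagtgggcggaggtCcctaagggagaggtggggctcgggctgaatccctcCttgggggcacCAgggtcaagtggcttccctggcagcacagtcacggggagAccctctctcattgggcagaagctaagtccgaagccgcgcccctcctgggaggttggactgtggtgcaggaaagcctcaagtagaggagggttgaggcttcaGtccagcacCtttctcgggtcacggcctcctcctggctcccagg
CGB3: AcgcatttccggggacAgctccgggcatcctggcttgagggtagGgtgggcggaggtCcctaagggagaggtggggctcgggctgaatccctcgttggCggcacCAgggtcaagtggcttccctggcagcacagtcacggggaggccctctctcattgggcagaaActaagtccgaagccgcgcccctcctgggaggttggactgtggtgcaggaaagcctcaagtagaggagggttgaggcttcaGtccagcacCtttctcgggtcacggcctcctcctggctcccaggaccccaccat
The CGA window held 2 copies, which began 142 and 124 bases before the start. The CGB8 window shared 281 of 300 bases with that of CGB5, and the CGB3 window shared 290. The run of capitals that opens the CGB8 window lies upstream of where the CGB5 window begins and has no counterpart in it. The shared counts thus depend on where the windows start and do not rank CGB8 and CGB3 by likeness to CGB5. The CRE letters stood in 1.85% of all 35116 promoter windows. Counted by gene, in any window of the gene, they stood in 310 of 7498 tested genes (4.13%). The share of windows and the share of genes are unlike measures. By the same count of genes the CRE letters stood in 7 of 143 called lower (4.9%), CGA and CGB1 included, and in 0 of 43 called higher. Because the beta genes are so alike, a probe for one may bind transcripts of another, and their values are not independent measurements of separate genes.

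Values are log2 intensities after background correction and quantile normalization. A probe was called at a change of 1.2-fold or more with an adjusted P value in limma under 0.05. The arrays detected between 14454 and 16167 probes each. Control siRNA 2 replicate 3 stood apart from its group. It correlated at 0.945 and 0.948 with the other control siRNA 2 arrays, which correlated at 0.990 with each other, and best, at 0.973, with ZNF658 siRNA 2 replicate 2. It lay at least 2-fold from the other arrays of its group on 1799 of 14804 probes, against 62 to 372 for the other control arrays. Replicate 3 of ZNF658 siRNA 2 correlated best with control siRNA 2 replicate 1 (0.989), and control siRNA 1 replicate 1 and ZNF658 siRNA 1 replicate 3 correlated best with each other (0.990). In each case the closest array bore an siRNA from the same supplier. These likenesses go against the group labels of 4 arrays, which were kept as deposited, and whether arrays were exchanged was not tested. Markers named for enterocytes gave a limited check of the cell line. Of 44 listed genes only 11 had a named probe, and 8 of these passed the detection filter and were tested. Among them the intestinal factors CDX1 (11.57, 11.18 and 11.10 with control siRNA 2, against 11.02, 10.97 and 11.02 with control siRNA 1) and CDX2, the cadherin CDH17 and apolipoprotein APOA1 were detected on every control array. Genes of the trophoblast lineage, among them VGLL1, TFAP2C and XAGE3, were detected on every control array too. Of 46 genes in that list 31 were tested and 27 detected on all 6 control arrays, against 7 of the 8 tested enterocyte genes. The summed level of the enterocyte list, a sum over fewer genes, was 12.28 to 12.53 on the log2 scale over the control arrays. That of the trophoblast list was 15.55 to 16.02. No other cell type is assigned here from these values.

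Control siRNA 2 differed from control siRNA 1 on 301 of 14804 probes tested (2.03%). Of these, 75 were higher with control siRNA 2 (0.507%) and 226 were lower (1.53%), and they stood for 59 and 181 named genes. Several probes were tested for 73 of the called genes. All of them were called the same way for 21 genes, and 9 genes had at least 1 probe of opposite sign. Of the genes named below, KLF10, TAGLN and S100A4 were among those with 1 of 2 tested probes called. At an unadjusted P value under 0.05 the number was 2211. Of the called probes, 185 differed by at least 2-fold, 32 of them higher and 153 lower. All 3 arrays of control siRNA 2 lay above or below all 3 of control siRNA 1 on 3045 probes (20.6%), and all 301 called probes were among them. The median log2 fold change over all probes was 0.008. In a fit of the 6 control arrays alone 12 probes were higher and 97 lower, 105 of them among the 301. The count also moved with single arrays. Without control siRNA 2 replicate 3 it was 582 probes, 223 higher and 359 lower, and 271 of the 301 calls stood. Without control siRNA 2 replicate 2 it was 183, and without control siRNA 1 replicate 1, 2 or 3 it was 176, 130 or 131. Fewer were called higher than lower in each of these fits. With arrays weighted by their quality 1268 were higher and 1248 lower. Median scaling in place of quantile normalization gave 61 higher and 108 lower, with a median over all probes of 0.174.

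**Figure D1:**
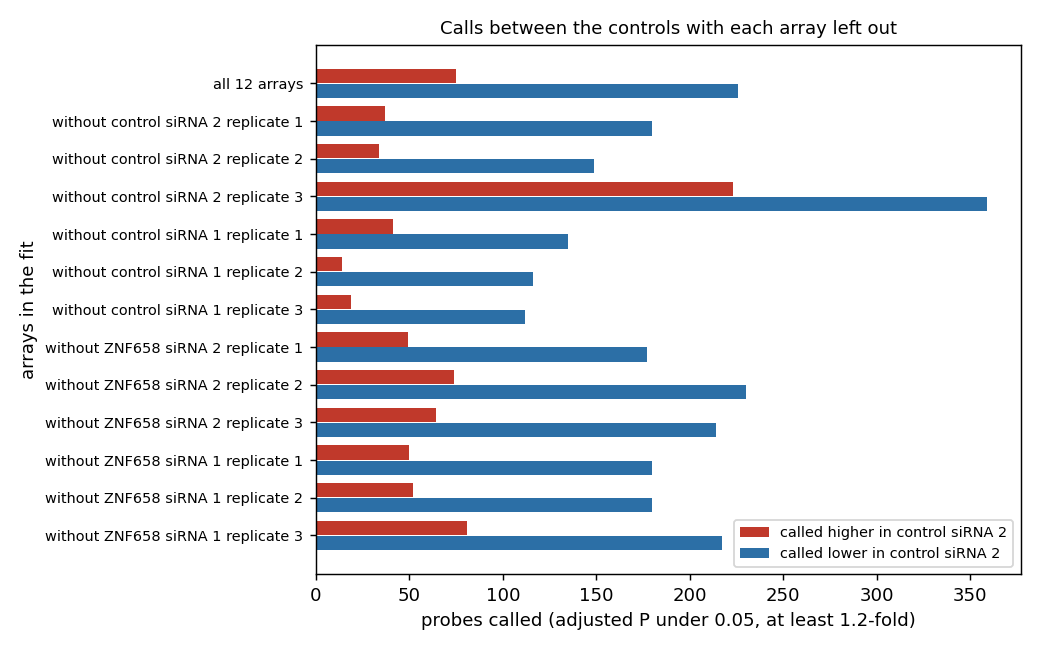
Number of probes called higher (red) and lower (blue) with control siRNA 2 than with control siRNA 1, in the fit of all 12 arrays and with each array left out in turn. The bars are longest without control siRNA 2 replicate 3 (223 and 359 probes), against 75 and 226 with all arrays.

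The chorionic gonadotropin beta genes and LHB carried 6 of the 15 largest decreases. CGB1 read 9.34, 9.17 and 8.74 on the control siRNA 2 arrays, against 12.55, 12.21 and 12.17 on the control siRNA 1 arrays, and was 9.35-fold lower with control siRNA 2 (adjusted P = 2.62e-06). CGB5 read 7.41, 7.62 and 9.11 with control siRNA 2, against 11.02, 11.62 and 11.57 with control siRNA 1, and differed by −3.36 ± 0.34 log2 units (SE, n = 3 each, adjusted P = 5.53e-05). CGB8 was 8.05-fold lower, and CGB3 was 5.85-fold lower. The 2 groups did not overlap for any of these, although replicate 3 of control siRNA 2 was the highest of its group for CGB5, CGB8 and CGB3 and the lowest for CGB1. LHB read 6.07, 6.00 and 7.59 with control siRNA 2, against 9.62, 10.02 and 9.66 with control siRNA 1 (adjusted P = 0.000279). CGB7 was not detected on any control siRNA 2 array and on all 3 control siRNA 1 arrays, so that only a limit can be given, of at least 2.81-fold lower (adjusted P = 1.78e-05). Such limits are set against the lowest intensity detected on each array, or the probe's own where that is higher. These 6 genes were called in each of the 12 fits that left out 1 array.

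The alpha subunit moved with the beta genes. CGA, singled out after its values were seen, read 10.08, 9.34 and 9.16 with control siRNA 2, against 12.03, 11.42 and 11.31 with control siRNA 1. It was 4.17-fold lower (log2 fold change −2.06 ± 0.32, SE, n = 3 each, adjusted P = 0.00255), and every control siRNA 2 array lay more than 1 log2 unit under every control siRNA 1 array. It too was called in all 12 fits with 1 array left out. RNA of a whole culture was measured, so that fewer cells making a transcript and less of it per cell cannot be told apart.

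Other products of the differentiated placenta were lower as well. Of the 46 trophoblast and placental hormone genes listed, 31 had a tested probe. Of these, 16 were lower with control siRNA 2 and 0 higher (51.6%, against 2.24% of all 9203 genes by their brightest probe), with a median log2 fold change of −1.0, against 0.003 over those genes. Without background correction the median was −0.48 and in the authors' normalized table −0.40, both with 16 genes lower. Beside the chorionic gonadotropin genes and LHB, the 9 other calls are given here with their values known. The syncytins ERVW-1 and ERVFRD-1, envelope proteins of endogenous retroviruses that fuse trophoblast cells, were 2.38- and 2.36-fold lower (adjusted P = 0.00211 and 0.00828). LGALS13, a placental galectin, was 2.53-fold lower (adjusted P = 0.00914). The steroid enzymes were lower too. HSD3B1, which makes progesterone, read 8.74, 9.21 and 8.77 with control siRNA 2, against 10.00, 10.26 and 10.12 with control siRNA 1 (2.33-fold lower, adjusted P = 0.000556). Aromatase, CYP19A1, was 2.06-fold lower, and the cholesterol side-chain cleavage enzyme CYP11A1 was 1.99-fold lower (adjusted P = 0.0105 and 0.0201). The placental growth factor PGF was 2.33-fold lower and GCM1, the factor that drives syncytial fusion, 1.78-fold lower, with adjusted P values of 0.0407 and 0.0215. ENDOU, a placental endoribonuclease, was not detected with control siRNA 2 and was at least 1.6-fold lower. ERVW-1, HSD3B1 and ENDOU were called in all 12 fits that left out 1 array, LGALS13 in 11, ERVFRD-1 and CYP19A1 in 10, CYP11A1 and GCM1 in 8, and PGF in 2.

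Among the transcription factors of the same list GCM1 was called, and TFAP2A, TFAP2C, GATA3 and TEAD4 were not. TFAP2C read 12.42, 12.36 and 12.23 with control siRNA 2, against 12.62, 12.72 and 12.87 with control siRNA 1 (adjusted P = 0.185). For GATA3, a further factor of trophoblast identity, the log2 fold change was 0.01 (adjusted P = 0.994), and for TEAD4 it was −0.06 (adjusted P = 0.897). The epithelial keratin KRT7 had 0.21, and the cancer-testis genes XAGE2 and XAGE3 had 0.25 and 0.29. The remaining 15 tested genes ran from −1.12 for PSG3 to 0.33 for TFAP2A without passing the test. Without control siRNA 2 replicate 3 the list had 17 genes lower and 0 higher, and without each other array between 11 and 16 lower. Under median scaling it had 8. Its summed level lay at 15.55 to 15.66 on the log2 scale with control siRNA 2, against 15.91 to 16.02 with control siRNA 1.

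**Figure D2:**
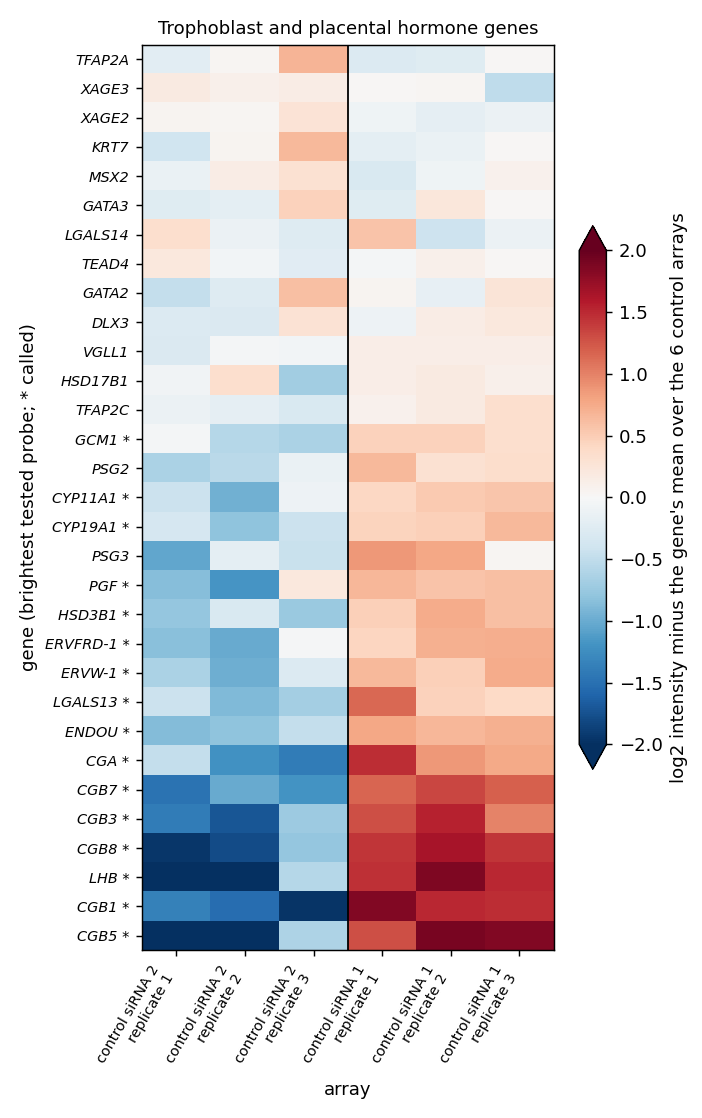
Log2 intensity of the 31 tested trophoblast and placental hormone genes on the 3 control siRNA 2 arrays (left) and the 3 control siRNA 1 arrays (right), each minus the gene's mean over the 6 arrays. Asterisks mark the 16 called genes, colours stop at 2 log2 units either way, and the factors TFAP2A, GATA3 and TEAD4 show no split between the groups like that of the CGB genes.

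Small proline-rich proteins, which are cross-linked into the cornified envelope of squamous epithelia, formed the other group among the largest decreases. SPRR2G read 7.39, 7.06 and 7.20 with control siRNA 2, against 10.85, 10.43 and 10.48 with control siRNA 1. It was 10.3-fold lower (log2 fold change −3.37 ± 0.29, SE, n = 3 each, adjusted P = 1.78e-05). SPRR3 was 5.07-fold lower and SPRR2D 4.14-fold lower. SPRR2F, chosen after its values were seen and detected on 1 of 3 control siRNA 2 arrays, was 3.47-fold lower. All 4 were called in each of the 12 fits that left out 1 array. Whether each SPRR2 probe binds only the transcript of its own gene was not tested. The squamous list held 15 tested genes of 45, of which 3 were lower and 0 higher, with a median of −0.42. That is 20%, against 2.24% of all genes by their brightest probe. The third was ZNF750, a factor of epidermal differentiation, which read 8.12, 8.31 and 8.97 with control siRNA 2, against 9.18, 10.17 and 10.35 with control siRNA 1 (adjusted P = 0.0348) and was called in 5 of 12 fits with 1 array left out. Keratin 80, KRT80, was the single call among 27 junction and simple epithelial genes and was 2.07-fold lower (adjusted P = 0.00191). The transglutaminase TGM1, which builds the envelope, differed by −0.08 log2 units (adjusted P = 0.927). A pair of epidermal genes outside the list, chosen after their values were seen, was higher. The brightest probe of DMKN, the secreted epidermal protein dermokine, read 9.92, 9.93 and 9.78 with control siRNA 2, against 9.04, 9.17 and 8.99 with control siRNA 1 (1.75-fold higher, adjusted P = 0.00868), and all 3 of its probes were called. PI3, the elastase inhibitor elafin, was 2.06-fold higher (adjusted P = 0.0292).

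**Figure D3:**
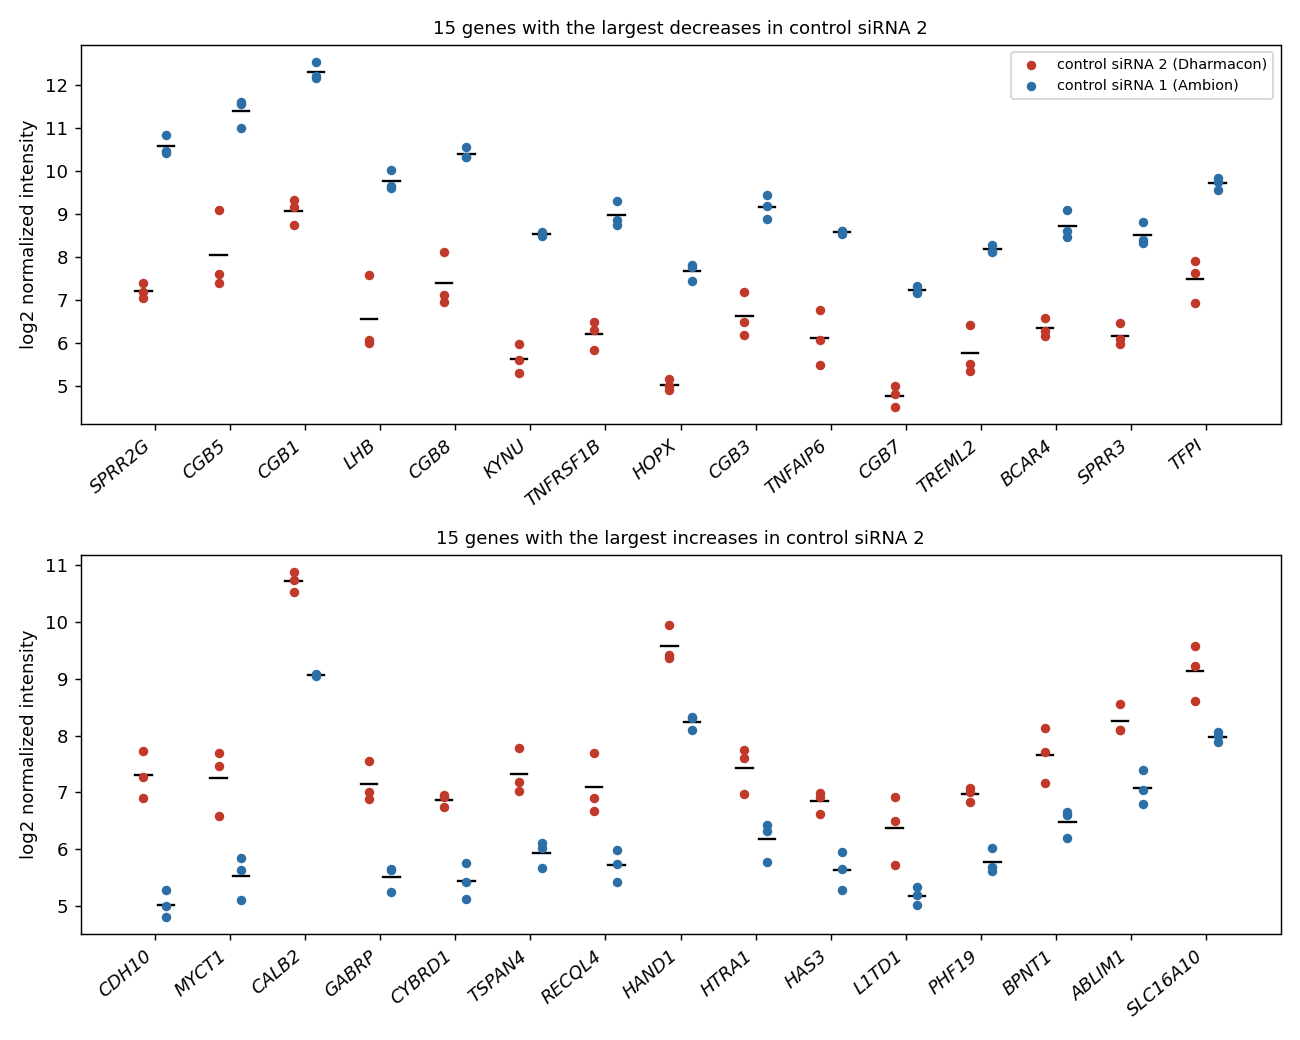
Log2 normalized intensity on each array of the 15 genes with the largest decreases (top) and the 15 with the largest increases (bottom), control siRNA 2 in red left of control siRNA 1 in blue, bars marking means of 3 arrays. The groups do not overlap for any of the 30 genes, and CGB1 lies at 8.74 to 9.34 with control siRNA 2, against 12.17 to 12.55 with control siRNA 1.

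The other large decreases were spread over metabolism, immune receptors and coagulation. KYNU, the kynureninase of tryptophan breakdown, read 5.30, 5.98 and 5.60 with control siRNA 2, against 8.59, 8.50 and 8.51 with control siRNA 1 (adjusted P = 2.15e-05), and both of its probes were called. It was detected on 1 of 3 control siRNA 2 arrays. HOPX, a homeodomain-only cofactor, was not detected with control siRNA 2 and was at least 3.83-fold lower (adjusted P = 1.58e-05). TNFRSF1B, a receptor of tumour necrosis factor, was 6.81-fold lower and TNFAIP6, a hyaluronan-binding protein induced by that cytokine, 5.57-fold lower. TFPI, the inhibitor of the tissue factor pathway, read 7.63, 7.91 and 6.93 with control siRNA 2, against 9.85, 9.75 and 9.57 with control siRNA 1 (4.71-fold lower, adjusted P = 5.53e-05), again with both probes called. TNFAIP6 was detected on 2 of 3 control siRNA 2 arrays. The myeloid receptor gene TREML2, detected on 1 of 3, was 5.38-fold lower, and the long non-coding RNA BCAR4 was 5.21-fold lower. Every one of these 7 genes was called in all 12 fits with 1 array left out.

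Further genes known from myeloid cells and lymphocytes were among the calls, chosen for mention after their values were seen. TREM1 and the chemokine receptor CCR7 were not detected on any control siRNA 2 array and were at least 2.46- and 2.42-fold lower. CSF3R, the granulocyte colony-stimulating factor receptor, read 9.24, 9.07 and 9.25 with control siRNA 2, against 10.24, 10.61 and 10.49 with control siRNA 1 (2.39-fold lower, adjusted P = 0.000979), and the actin-bundling protein LCP1 was 2.23-fold lower. Of the 14 leukocyte markers listed, 4 had a tested probe and 0 were called. CD14 read 8.49, 8.77 and 7.43 with control siRNA 2, against 9.01, 8.37 and 8.22 with control siRNA 1 (adjusted P = 0.708), and the groups overlapped. The liver-type plasma proteins ALB and AFP were 2.71- and 2.08-fold lower, and the carboxylesterase CES1 was 3.09-fold lower on the brighter of its 2 called probes (adjusted P = 2.7e-05). The solute carriers SLC13A4, a sulfate transporter, and SLC22A11, an organic anion transporter, were 4.04- and 3.55-fold lower. HEY1, a target of Notch detected on 2 of 3 control siRNA 2 arrays, was 3.40-fold lower.

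Of the 14 tested genes of drug metabolism and transport, 3 were lower and 0 higher, with a median of −0.20. That is 21.4%, against 2.24% of all genes by their brightest probe. Of the 9 detected on all 6 control arrays 1 was called, CYP1B1, and the other calls were not detected on every control siRNA 2 array. The 3 called genes are known targets of the aryl hydrocarbon receptor. CYP1A1, a cytochrome that oxidises aromatic hydrocarbons, read 5.99, 5.61 and 5.65 with control siRNA 2, against 7.97, 7.55 and 7.76 with control siRNA 1 (4.03-fold lower, adjusted P = 0.000765). It was detected on 1 of 3 control siRNA 2 arrays and on all control siRNA 1 arrays. UGT1A6, a glucuronosyltransferase detected on 2 of 3 control siRNA 2 arrays, was 3.15-fold lower (adjusted P = 0.000205), and CYP1B1 was 1.75-fold lower (adjusted P = 0.0452), a call that 11 of the 12 fits with 1 array left out did not keep. TIPARP, a further target of the receptor chosen after its values were seen, was 2.45-fold lower (adjusted P = 0.0338, called in 5 of 12). The glutathione transferase GSTP1 differed by −0.08 log2 units (adjusted P = 0.828).

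The p53, immediate early and unfolded protein response lists held 7 calls, all lower. CDKN1A, the p21 inhibitor of cyclin-dependent kinases, read 8.80, 8.68 and 8.66 with control siRNA 2, against 10.90, 10.36 and 10.59 with control siRNA 1 (3.73-fold lower, adjusted P = 5.32e-05). It was the single call among 18 tested p53 targets (5.56%, against 2.24% of all genes by their brightest probe), whose median was −0.30. MDM2, detected on 0 control siRNA 2 arrays and 3 control siRNA 1 arrays, was not called (adjusted P = 0.111). Of 23 immediate early genes, 4 were lower and 0 higher (17.4%, against 2.24% of all genes), with a median of −0.06. FOSB, a subunit of AP-1, was 3.62-fold lower (adjusted P = 0.000468), and KLF10, IER3 and ATF3 were 2.37-, 1.98- and 1.79-fold lower. FOSB and ATF3 were called in all 12 fits with 1 array left out, KLF10 in 10 and IER3 in 9. Of 31 genes of the unfolded protein and integrated stress response, 2 were lower and 0 higher (6.45%, against 2.24% of all genes). They were SLC7A11, the cystine transporter (2.78-fold lower, adjusted P = 0.000922), and DNAJC3, an endoplasmic reticulum co-chaperone (1.95-fold lower, adjusted P = 0.0081). In the unfolded protein list 26 of 31 values lay below 0, and its median was −0.24, against 0.003 over all genes. Under median scaling it was −0.03, against 0.174 over all probes.

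Of 27 tested genes of the interferon and double-stranded RNA response, 1 was called (3.7%, against 2.24% of all genes), and the median was −0.10. IFI6 read 13.94, 13.88 and 13.08 with control siRNA 2, against 14.49, 14.99 and 15.06 with control siRNA 1 (2.32-fold lower, adjusted P = 0.0149), with both of its probes called and the call made in 10 of the 12 fits with 1 array left out. The remaining values ran from −0.95 for IFITM1 to 0.87 for IFIT1, which was detected on 2 control siRNA 2 arrays and on 0 control siRNA 1 arrays (adjusted P = 0.167). Of 16 genes of the RNA interference machinery 0 were called, and 1 had an unadjusted P value under 0.05, against 14.8% of all genes.

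Increases with control siRNA 2 were fewer and smaller. CDH10, a neuronal cadherin, was the largest. It read 7.73, 7.28 and 6.91 with control siRNA 2, against 5.00, 4.81 and 5.28 with control siRNA 1, where no array detected it. The limit was an increase of at least 3.0-fold (adjusted P = 7.35e-05). CALB2, the calcium-binding protein calretinin, read 10.53, 10.87 and 10.74 with control siRNA 2, against 9.04, 9.09 and 9.07 with control siRNA 1 (3.13-fold higher, adjusted P = 9.07e-05). 1 of its 2 probes was called. HAND1, a basic helix-loop-helix factor of the heart and, in mice, of trophoblast giant cells, read 9.36, 9.41 and 9.95 with control siRNA 2, against 8.10, 8.30 and 8.32 with control siRNA 1 (2.53-fold higher, adjusted P = 0.00211). The homeobox factor MSX1, chosen after its values were seen, was 1.88-fold higher (adjusted P = 0.00191). MYCT1, detected on 1 of 3 control siRNA 1 arrays, was 3.30-fold higher, and GABRP, a subunit of the GABA type A receptor that was not detected with control siRNA 1, at least 2.69-fold higher. CYBRD1, the duodenal ferric reductase, was 2.71-fold higher with both probes called and was detected on 1 of 3 control siRNA 1 arrays, and the serine protease HTRA1 was 2.40-fold higher. The remaining genes among the 15 largest increases were TSPAN4, RECQL4, HAS3, PHF19, L1TD1, BPNT1, ABLIM1 and SLC16A10, between 2.23- and 2.62-fold, with L1TD1 given as at least 1.58-fold. HAS3 and PHF19 were detected on 1 of 3 control siRNA 1 arrays, and TSPAN4 and RECQL4 on 2. For PHF19 1 of 3 tested probes was called and 1 had the opposite sign. For MYCT1, TSPAN4 and ABLIM1 1 of 2 was called. L1TD1 was called in 2 of the 12 fits with 1 array left out, RECQL4 in 6 and HTRA1 in 7, and without control siRNA 2 replicate 3 the adjusted P value of RECQL4 was 0.057. Of the 28 increases examined one by one, 6 were called in every fit with 1 array left out, and of 59 decreases 40. CDH10, CALB2, MYCT1, HAND1 and MSX1 were among the 6.

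The sixth was ZFAS1, a non-coding host transcript of small nucleolar RNAs. It read 12.96, 13.17 and 13.10 with control siRNA 2, against 12.45, 12.37 and 12.04 with control siRNA 1 (1.73-fold higher, adjusted P = 0.00668). Such host genes also carry a terminal oligopyrimidine tract in many cases, as mRNAs of ribosomal proteins do. Of the 11 tested, 2 were higher and 0 lower (18.2%, against 2.24% of all genes by their brightest probe). Of these values 11 of 11 lay above 0, with a median of 0.45, against 0.003 over all genes. For ZNF658 siRNA 2 against ZNF658 siRNA 1 the median of the list was −0.26, with 0 calls. Between the controls SNHG9 was 2.00-fold higher (adjusted P = 0.0434). That call was not made in 10 of the 12 fits with 1 array left out. Among them was the fit without control siRNA 2 replicate 3 (adjusted P = 0.056). By their brightest probes the listed ribosomal protein genes were not called, with 0 of 42 for the large and 0 of 26 for the small subunit. Their medians were 0.05 and 0.03. At an unadjusted P value under 0.05 there were 4 and 2, against a share of 14.8% over all genes. A probe of RPL41 outside this count was called 2.11-fold higher (adjusted P = 0.034). It was detected on 1 of 3 control siRNA 1 arrays. TXNIP, an inhibitor of thioredoxin and glucose uptake, was 1.88-fold higher (adjusted P = 0.0285), and the transporter ABCC3 was 2.17-fold higher (adjusted P = 0.0133). They were called in 7 and 8 of the 12 fits with 1 array left out. Both of their lists also held a decrease, KLF15 (1.74-fold lower, adjusted P = 0.0337, called in 5 of 12 fits) beside TXNIP and SLC7A11 beside ABCC3.

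**Figure D4:**
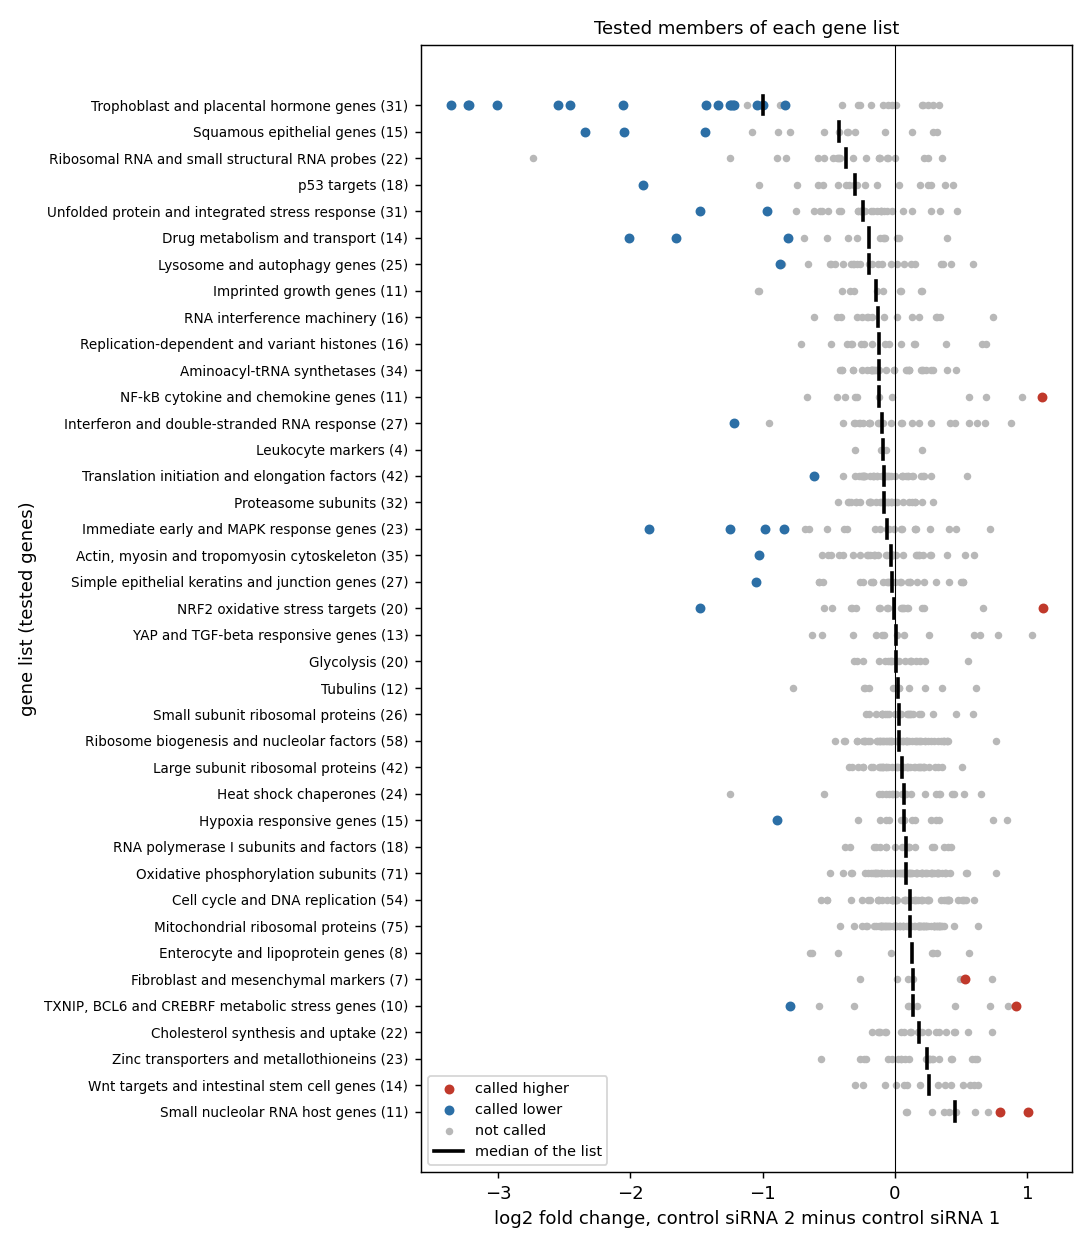
Log2 fold change, control siRNA 2 minus control siRNA 1, of each tested gene in the 39 gene lists with at least 4 tested members, ordered by the median (black bar), with called genes in blue (lower) or red (higher). The trophoblast list lies at the top with a median of −1.0 and 16 calls, and the small nucleolar RNA host genes at the bottom with a median of 0.45 and 2 calls.

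By the brightest probe of each gene, there were 0 calls among 54 tested genes of the cell cycle, 71 of oxidative phosphorylation, 75 of the mitochondrial ribosome, 58 of ribosome biogenesis, 32 of the proteasome, 22 of cholesterol synthesis and 20 of glycolysis. At an unadjusted P value under 0.05 these lists held 9, 12, 6, 6, 6, 2 and 2 genes. Over all 9203 genes, by their brightest probe, 2.24% were called and 14.8% had an unadjusted P value under 0.05. A probe of the glycolytic enzyme TPI1 outside this count was called 1.47-fold higher (adjusted P = 0.0377). The cytoskeletal list had 1 call of 35, TAGLN, which was 2.04-fold lower (adjusted P = 0.0218) and called in 9 of 12 fits. Beside that count, and chosen after their values were seen, ACTA1 and PLS1 were 1.88- and 1.98-fold higher (adjusted P = 0.0402 and 0.0143). They were called in 4 and 8 of 12 fits. MYL3 was called lower. Single calls also stood in the lists of chemokines (CXCL16, 2.16-fold higher), hypoxia (ADM, 1.86-fold lower), translation factors (EIF2B2, 1.53-fold lower) and autophagy (WIPI1, 1.83-fold lower). WIPI1 was called in 8 of 12 fits, CXCL16 in 3 and ADM and EIF2B2 in 2, and ADM had an adjusted P value of 0.056 without control siRNA 2 replicate 3. Among fibroblast markers S100A4 was 1.44-fold higher (adjusted P = 0.044), and without control siRNA 2 replicate 3 its adjusted P was 0.065. Of the 21 goblet, Paneth and enteroendocrine markers 2 had a tested probe, and of 10 endothelial markers 0.

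Genes that the study itself was about were not called between the controls where they had a tested probe. ZNF658 and SLC30A10, the zinc transporter ZnT10, had no named probe among those tested and are not analysed here. Of 23 zinc transporters and metallothioneins 0 were called, against 2.24% of all genes. An unadjusted P value under 0.05 was found for 3, against 14.8% of all genes. SLC30A5, the zinc transporter ZnT5, read 9.16, 9.29 and 8.62 with control siRNA 2, against 9.39, 9.04 and 9.28 with control siRNA 1 (adjusted P = 0.639). Among the zinc chaperone genes formerly named CBWD, ZNG1A had a log2 fold change of 0.05 and ZNG1C of 0.43. The 18S ribosomal RNA probe, RNA18SN5, read 10.21, 10.06 and 11.56 with control siRNA 2, against 10.74, 14.55 and 14.74 with control siRNA 1. Replicate 1 of control siRNA 1 lay among the control siRNA 2 arrays, and the difference was not called (adjusted P = 0.236). GAPDH and ACTB, common references, had log2 fold changes of −0.02 and −0.03.

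The same pair of suppliers was set against each other a second time, on arrays that share none with the controls, by ZNF658 siRNA 2 against ZNF658 siRNA 1. Both comparisons came from the same fit, which pooled the spread within all 4 groups, so that their calls are not independent. The comparison of the ZNF658 siRNAs gave 285 calls (1.93%). Without ZNF658 siRNA 2 replicate 1 or 2 it gave 107 or 158, without ZNF658 siRNA 1 replicate 1 or 2 it gave 106 or 132, and without control siRNA 2 replicate 3 it gave 784. Of the 226 probes lower with control siRNA 2, 205 (90.7%) were also lower with ZNF658 siRNA 2 than with ZNF658 siRNA 1, and 114 (50.4%) were called lower there. Of the 75 higher, 67 (89.3%) were higher there too and 21 (28.0%) were called. Called the opposite way were 0. In the other direction 135 of the 285 calls (47.4%) were called the same way between the controls. Over all tested probes the sign was shared by 54.6%. CGB1 had a log2 fold change of −3.43 between the ZNF658 siRNAs, SPRR2G −3.59, KYNU −3.31, CGA −2.10 and CYP1A1 −2.39. CDH10 had 1.94, HAND1 1.5 and CALB2 1.23. All 8 were called in both comparisons.

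Some genes were called between the controls alone. The log2 fold change of ZFAS1 was −0.22 there, that of SNHG9 −0.28, of TAGLN 0.20, of HSD3B1 −0.32 and of ZNF750 −0.16, none of them called. The test of the difference between the 2 comparisons called 0 probes in limma, with 1597 at an unadjusted P value under 0.05, and ZFAS1 had an adjusted P of 0.251 in it. That count too moved with single arrays, to 30 without ZNF658 siRNA 2 replicate 3 and to 19 without ZNF658 siRNA 1 replicate 3.

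**Figure D5:**
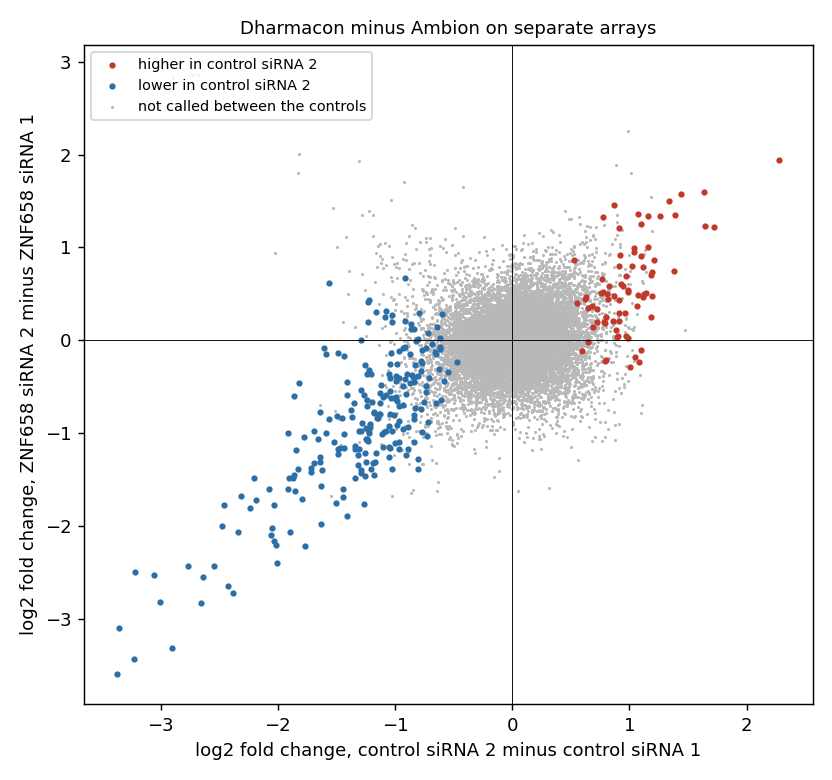
Log2 fold change of each tested probe between the controls (horizontal, control siRNA 2 minus control siRNA 1) and between the ZNF658 siRNAs (vertical, siRNA 2 minus siRNA 1), with probes called between the controls in red (75 higher) and blue (226 lower). Of the blue points 205 lie below 0 on the vertical axis, and of the red points 67 lie above it.

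The 4 arrays that correlated best with an array of another group bore on this sharing. With all 4 left out, 2 arrays a group, 902 probes were higher and 973 lower with control siRNA 2, and 70 of the 75 higher and 218 of the 226 lower calls stood. Of those 75 and 226 probes, 63 (84.0%) and 200 (88.5%) kept the same sign between the ZNF658 siRNAs. Of the larger sets of 902 and 973, the sign was shared by 306 (33.9%) and 418 (43.0%), and by 41.7% of all tested probes. Over all tested probes the 2 fold changes correlated at −0.13 without the 4 arrays, against 0.28 with all arrays. Without the 4 arrays the difference between the 2 comparisons had 2861 calls. The trophoblast list had 17 genes lower and 0 higher in that fit, with a median of −1.02. The shared sign was a feature of the 301 probes, and the wider set called without these arrays did not have it. The 301 were chosen in a fit that held these 4 arrays, and whether that choice brought the shared sign was not tested.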

How the data were processed

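Samples of Caco-2 RNA, 12 in all, were hybridised to Illumina HT12 bead chips. The authors deposited a BeadStudio export without normalization, which holds for 47231 probes the intensity on each array with its detection p-value, and a table of log2 values that they had transformed and normalized, for 21105 probes. The labels name lumi, and its version is not given in the sources used here. The methods name variance stabilizing normalization and the rank product test. That test permutes values over probes, and it was not used here.

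Here neqc (limma 3.58.1, R 4.3.3, statmod 1.5.0) took the background from the detection p-values, corrected for it, added an offset of 16 and quantile normalized the arrays. A group of arrays detected a probe when each of its 3 detection p-values lay under 0.01, and the 14804 probes so detected in 1 group or more were tested. One limma fit (lmFit, eBayes with a trend, Benjamini-Hochberg adjustment) held all 12 arrays as 4 groups. Of the tested probes, 11868 carried 1 gene name in the platform annotation. The annotation used here covered 15543 probes, all from the authors' table. A gene without a named probe may thus still have a probe on the array. Each gene in a list stands by its brightest tested probe. A fold against a group without detection is a lower limit. Genes were named from the 15 largest changes each way, called members of 41 gene lists (the 6 largest of a list), the 2 largest of lists with no call, and genes of the study. Others are said to be chosen after their values were seen. Groups came from the sample titles. The array comparison, gene lists and named genes were chosen with earlier results of these data known. No bead chip identifier accompanies the arrays, and their number limits the precision. The fit was checked on simulated data with known changes. Promoter windows came from RefSeq on GRCh38.p14.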

Additional observations from a re-analysis of the deposited data

How the results depend on the processing

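Alternatives were run for 87 called genes examined one by one, for the gene lists and for the counts, and none of the 87 changed sign in any. Between the controls, 109 probes were called in a fit of the 6 control arrays alone, 169 after median scaling, 184 without the detection filter, 176 with detection required on all 6 control arrays, 2516 with array quality weights, 825 without replicate 3 of both Dharmacon groups and 1875 without the 4 arrays closest to another group, the last chosen after seeing the data. Calls higher made up 24.9% with all arrays, 36.1% after median scaling and 50.4% with array weights, which gave control siRNA 2 replicate 3 a weight of 0.156, against 1.39 and 2.00 for the other arrays of its group. With 1 array left out the count ran from 130 to 582. Between the ZNF658 siRNAs the counts were 169 after median scaling, 182 without the filter, 2891 with weights, 1649 and 2580 with the same 2 and 4 arrays left out, and 106 to 784 with 1 left out. The difference between the 2 comparisons had 51 calls after median scaling, 2729 with weights, 1456 and 2861 with 2 and 4 arrays left out, and 0 to 30 with 1 left out. The cause of these shifts was not tested.

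Residuals of same-numbered arrays correlated between −0.59 and 0.40, and 3 of 12 arrays were closest to their own number. The check used the labels as deposited, which the likenesses of 4 arrays go against, so that it cannot exclude a pairing by replicate. With the replicate block, 201 probes were called between the controls, 198 between the ZNF658 siRNAs and 0 in the difference. Of the 87 genes, 84 stayed called without background correction and 84 in the authors' table, and 38 lost the call in the fit of the control arrays alone, 27 after median scaling and 15 with the block. Leaving out control siRNA 1 replicate 2 cost 34 of these calls and leaving out control siRNA 2 replicate 3 cost 4.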
